A study of Mus musculus with 4 samples.

Results

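The 9 genes studied here are read as markers of macrophages and monocytes, and were followed through 4 spatial transcriptomes of MC38 tumors: Adgre1, Cd68, Csf1r, Apoe, Itgam, Lyz2, Ly6c2, Cx3cr1 and Csf1. They were set by their gene symbols, by a rule with no threshold on a measured value though with earlier results of these data known, and make up 9 of the 32285 genes of the count tables. Each of the 9 symbols named 1 row. The MC38 line comes from a colon carcinoma of a C57BL/6 mouse and grew here under the skin. All hosts were female F1 mice of 8 to 12 weeks. They were given isotype control antibody once into the peritoneum (200 µg, when the tumor measured 75 to 110 mm3) and were killed 48 hours later. The 2 CC075F1 hosts were C57BL/6J x CC075/UncJ, a cross named as responsive to anti-PD-1 by the study. The 2 CC080F1 hosts were C57BL/6J x CC080/TauUncJ, named as unresponsive. Collaborative Cross strains such as these descend from several founder strains. Sections from anti-PD-1 treated tumors were not analysed here. The whole tumor was sectioned with no sort of cells, and a spot (a barcoded capture area of a Visium slide) can hold several cells of different types, or part of one.

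Macrophages in tumors arise in large part from blood monocytes, which enter through vessels and mature in the tissue. Classical monocytes carry the surface protein Ly6C, encoded in part by Ly6c2, and lose it as they mature, while F4/80 (Adgre1), the CSF1 receptor (Csf1r) and apolipoprotein E (Apoe) rise. Cx3cr1, the fractalkine receptor, marks non-classical monocytes and many tissue macrophages. Cd68, a protein of late endosomes and lysosomes, and Lyz2, lysozyme M, run through most of the lineage, and neutrophils also express Lyz2. Itgam, the CD11b integrin chain, is shared by monocytes, macrophages and neutrophils. Csf1 is the ligand of Csf1r and is made by many cell types, so it does not mark a macrophage.

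The 4 sections held 2710 and 3276 spots in CC075F1 replicates 1 and 2 and 2787 and 3174 spots in CC080F1 replicates 1 and 2, in which order all values per section are given. They totalled 82594649 to 146460975 unique molecular identifiers (UMIs, each 1 captured RNA molecule), with a median of 31139 to 41740 per spot. Levels are in CPM, which are UMIs scaled to a common section total. They count captured 3′ ends, so no correction for gene length was applied and levels of different genes are not ranked against each other. In such sums fewer cells of a type and less RNA per cell cannot be told apart. Deepest of the 4, CC075F1 replicate 2 also held 66 spots in which over 0.5% of UMIs came from muscle, skin or fat marker genes, against 0, 0 and 3 in the others. Of the slide positions, 1666 lay under tissue in every section, so the sections share barcode names but no cells. Each section was labelled as its own biological replicate, and no library batch or date was used here.

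Positions are those of the whole gene, introns included (GRCm38). Adgre1 is at chr17:57358691-57483527 (+ strand), Cd68 at chr11:69664213-69666153 (−), Apoe at chr7:19696109-19699188 (−), Itgam at chr7:128062640-128118491 (+), Lyz2 at chr10:117277331-117282321 (−), Ly6c2 at chr15:75108158-75111970 (−), Cx3cr1 at chr9:119901616-120069879 (−) and Csf1 at chr3:107741048-107760469 (−). Apoe and Itgam share chromosome 7 but are far apart on it. Ly6c2 has a near copy on the same chromosome, Ly6c1 (chr15:75044018-75048830), and Lyz2 has one, Lyz1 (chr10:117287797-117292868), and reads that fit both members of such a pair can be lost or misplaced. Of the 90-base stretches found in the annotated transcripts of Ly6c2, 199 of 2737 (7.27%) also occurred in Ly6c1, and 35 of the 311 in the last 400 bases of Ly6c2-201, where 3′ reads fall. The same count was 44 of 1227 for Lyz2 against Lyz1. For Itgam, 3362 of 5203 stretches also occurred in Gm49368, a gene that overlaps it and was not among the genes counted. None of the 311 in the last 400 bases of Itgam-201 did. Stretches of Adgre1, Cd68, Csf1r, Apoe, Cx3cr1 and Csf1 occurred in no other gene.

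Promoters are shown for Ly6c2, the only one of the 9 that was higher at the tissue edge in all 4 sections, and for Lyz2 and Apoe, the pair that followed each other most closely over the tissue. RefSeq windows of 300 bases (GRCm38.p6, from 250 bases before to 50 after the annotated start) were at hand for 7 of the 9 genes, with 10 windows in all. They were searched on both strands for GAGGAAGT, a strong binding sequence of PU.1 (the factor encoded by Spi1 that sets up the myeloid lineages). The windows printed read 5′ to 3′ on the strand of the gene, with matches in capitals.
Ly6c2, chr15:75111922-75112221 (− strand): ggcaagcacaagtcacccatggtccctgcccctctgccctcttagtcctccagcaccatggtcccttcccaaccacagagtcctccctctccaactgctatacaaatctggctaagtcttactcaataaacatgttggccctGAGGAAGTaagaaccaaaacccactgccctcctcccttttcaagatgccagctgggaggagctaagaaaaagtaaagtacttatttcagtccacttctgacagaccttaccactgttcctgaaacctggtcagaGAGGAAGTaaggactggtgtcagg
Lyz2, chr10:117282223-117282522 (− strand): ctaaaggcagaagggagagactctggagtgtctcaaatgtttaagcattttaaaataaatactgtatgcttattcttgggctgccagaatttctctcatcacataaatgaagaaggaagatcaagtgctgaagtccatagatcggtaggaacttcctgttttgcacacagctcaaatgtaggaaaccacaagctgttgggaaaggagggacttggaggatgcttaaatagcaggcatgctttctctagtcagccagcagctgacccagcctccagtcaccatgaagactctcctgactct
Apoe, chr7:19699139-19699438 (− strand): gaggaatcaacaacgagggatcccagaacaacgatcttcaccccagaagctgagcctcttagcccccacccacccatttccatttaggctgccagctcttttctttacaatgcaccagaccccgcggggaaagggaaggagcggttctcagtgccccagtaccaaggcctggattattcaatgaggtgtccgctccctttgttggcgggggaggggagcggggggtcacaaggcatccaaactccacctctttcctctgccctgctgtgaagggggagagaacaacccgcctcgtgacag

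The Ly6c2 window held the PU.1 sequence at 2 places, starting 108 bases before the transcript start and at base 27 of the transcript. A second annotated start of Ly6c2 holds the same 2 matches. No other window of the 7 genes held that sequence in these letters. Among all 32851 windows, 3.20% held it. A match is a description of the letters and not of a bound site.

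Between the strains, no member of the 9 was called. In CPM, Lyz2 was higher and Itgam lower in both CC075F1 sections than in either CC080F1 section, while the other 7 overlapped between strains. By exact permutation such a separation has p = 0.33, and the share of all genes that separate was not counted. Ly6c2 and Cx3cr1 differed more between the sections of a strain than between strains. By edgeR's quasi-likelihood test on UMIs summed per section, 14 of 15572 genes (0.0899%) had an adjusted p under 0.05, and 0 of the 9 members. Leaving out each section moved the count of genes to 14, 11, 138 and 207. None of the 9 had an unadjusted p under 0.05 either, where 846 of the 15572 genes did. The DESeq2 Wald test called 194 of 15572 genes and 1 of the 9, Lyz2. The median log2 fold change of the 9 was 0.22 and that of all genes −0.02. Fold changes are CC075F1 over CC080F1 throughout. With library size in place of trimmed mean (TMM) scaling the median of all genes was −0.31, so small changes depend on the scaling.

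Lyz2 stood at 2290 and 1736 CPM in CC075F1 and at 1200 and 1498 CPM in CC080F1. Both CC075F1 sections were above both CC080F1 sections, with means of 2013 ± 392 and 1349 ± 211 (SD, n = 2 each). The ratio of the means was 1.49, and an exact permutation test gave p = 0.33, the smallest that 2 against 2 sections allow. In edgeR the log2 fold change was 0.87 ± 0.38 (SE, adjusted p = 0.830), and in the DESeq2 Wald test 0.89 (adjusted p = 0.0411).

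Itgam ran the other way, at 21.6 and 21.6 CPM in CC075F1 and at 35.02 and 30.4 CPM in CC080F1. The CC075F1 sections nearly coincided and lay below both others, with means of 21.6 ± 0.04 and 32.7 ± 3.27. The edgeR log2 fold change was −0.26 ± 0.22 (adjusted p = 0.832), and −0.60 when library size alone set the scale. It was −0.01 without CC075F1 replicate 1 and −0.54 without CC075F1 replicate 2, although these sections had nearly the same CPM. Its size thus depended on the scaling between sections.

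The 4 mature macrophage genes overlapped between strains. Adgre1 was at 75.5 and 47.0 CPM in CC075F1 and at 65.1 and 61.9 CPM in CC080F1. Csf1r (chr18:61100598-61132149, + strand) was at 151 and 94.1 CPM in CC075F1 and at 138 and 136 CPM in CC080F1. In both genes CC075F1 replicate 1 was the highest section and CC075F1 replicate 2 the lowest, with the CC080F1 sections close together between them. Apoe spread the same way, at 1707 and 688 CPM in CC075F1 and at 1073 and 789 CPM in CC080F1, so that the CC075F1 sections bracketed the others. Cd68 was at 93.2 and 109 CPM in CC075F1 and at 98.0 and 90.04 CPM in CC080F1. It was the steadiest of the 4, with strain means of 101 ± 11.0 and 94.0 ± 5.64. Their edgeR log2 fold changes were 0.22 (SE 0.18) for Adgre1, 0.46 (SE 0.28) for Cd68, 0.12 (SE 0.21) for Csf1r and 0.59 (SE 0.39) for Apoe, with adjusted p-values of 0.830 to 0.910. Those of Adgre1 and Csf1r turned to −0.05 and −0.16 with library size alone.

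Ly6c2 was at 1.89 and 13.5 CPM in CC075F1 and at 3.26 and 10.2 CPM in CC080F1, from 156, 1974, 305 and 1151 UMIs. In either strain replicate 2 was the high section, and the strains overlapped throughout. The edgeR log2 fold change of 0.68 ± 0.95 (adjusted p = 0.883) rested on single sections. It was −1.82 without CC075F1 replicate 2 and 1.83 without CC080F1 replicate 2. Each of these fits leaves a strain with 1 section, which is assumed to vary like the pair of the other strain. Its near copy Ly6c1 was at 17.9, 32.3, 14.99 and 29.4 CPM, also highest in the same 2 sections, and the ratio of Ly6c2 to Ly6c1 was 0.105, 0.417, 0.217 and 0.347.

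Cx3cr1 was at 36.8 and 13.9 CPM in CC075F1 and at 43.5 and 22.4 CPM in CC080F1. Here replicate 1 was the high section of either strain, opposite to Ly6c2. The edgeR log2 fold change was −0.15 ± 0.36 (adjusted p = 0.933), and −0.65 to 0.33 when each section was left out. Csf1, the growth factor, was at 205 and 161 CPM in CC075F1 and at 190 and 200 CPM in CC080F1. Its CC075F1 sections bracketed the CC080F1 sections, and the log2 fold change was 0.21 ± 0.24 (edgeR, adjusted p = 0.856), or −0.09 with library size alone.

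**Figure D1:**
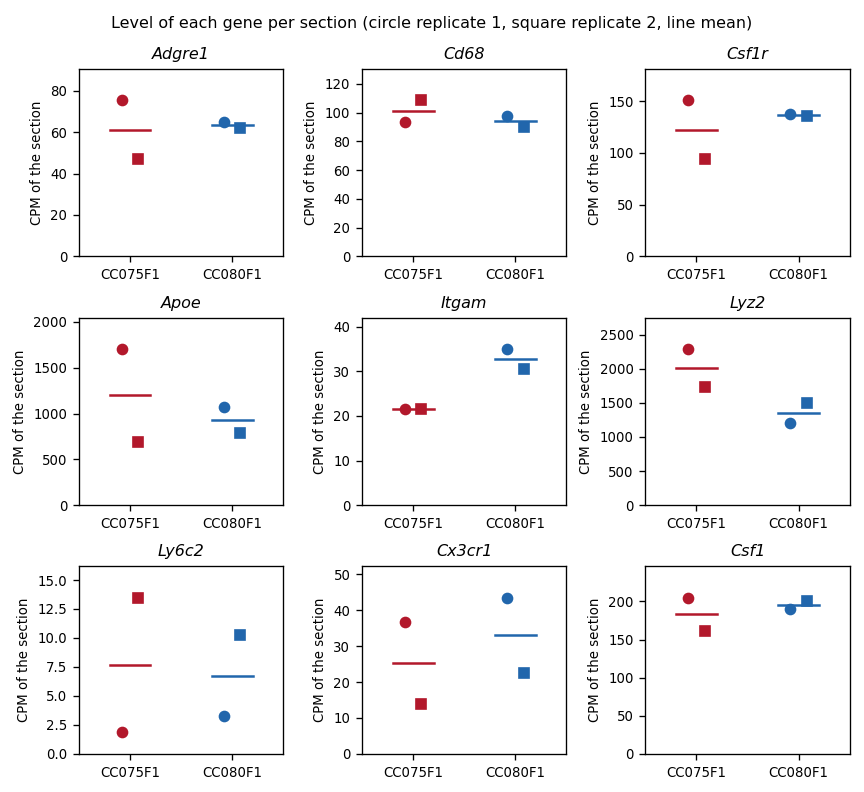
Level of each of the 9 genes in CPM of the section (vertical axes from 0, a scale per gene), by strain, with circles for replicate 1, squares for replicate 2 and lines for the mean of 2. Lyz2 and Itgam are the only panels in which the strains do not overlap, and in Ly6c2 and Cx3cr1 the replicates of a strain stand far apart. A separation of 2 against 2 sections has p = 0.33 (exact permutation).

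The level of Ly6c2 against mature macrophage genes asks how far monocyte and macrophage RNA part from each other. It was taken as log2 CPM of Ly6c2 minus the mean log2 CPM of Adgre1, Cd68, Csf1r and Apoe. The difference was −6.77 and −3.32 in CC075F1 and −5.75 and −3.94 in CC080F1, so the CC075F1 sections again bracketed the others. The strain means of −5.05 ± 2.44 and −4.84 ± 1.28 differed by −0.21, far less than the sections within a strain (exact permutation test, p = 1, n = 2 each).

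Other genes of the lineage, from lists chosen for their known roles, gave a mixed account between strains. Of 10 other classical monocyte genes 1 fell and 0 rose. That gene was F13a1, the coagulation factor XIII A chain, at 4.27 and 3.63 CPM in CC075F1 and at 23.5 and 36.8 CPM in CC080F1 (log2 fold change −2.63 ± 0.30, adjusted p = 0.0491, edgeR). Its adjusted p was 0.0851 without CC075F1 replicate 1 and 0.0902 without CC075F1 replicate 2 (edgeR). The list's median log2 fold change was −0.37. Ccr2, the receptor for CCL2 on classical monocytes, had a log2 fold change of −0.51 (adjusted p = 0.830), with 46.3 and 21.2 CPM in CC075F1 and 63.7 and 50.1 CPM in CC080F1. None of 14 other mature macrophage genes was called, with a median of 0.17. The complement gene C1qb had a log2 fold change of 1.01, the Fc receptor gene Fcgr1 one of 1.48 and the folate receptor gene Folr2 one of −2.37, the last 2 with adjusted p-values of 0.271 and 0.344. Of 8 non-classical monocyte genes 0 were called (median 0.48), and 0 of 8 myeloid transcription factors (median 0.24) with Spi1 at 0.63 (SE 0.23, adjusted p = 0.830). No gene was called among 6 other CSF ligands and receptors tested of 7, 8 genes of monocyte recruitment, 8 of lipid handling and 5 integrin partners and ligands. Among the last, Itgax, Itgal and Itgb2, the chain that pairs with Itgam, had positive log2 fold changes of 1.17, 1.38 and 0.71 (adjusted p 0.544 to 0.799, edgeR) where Itgam's was negative.

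Shares of spots with at least 1 UMI were compared after each spot had been thinned to 10000 UMIs, because deeper spots show more genes. Spots below that depth were left out, 161, 102, 53 and 205 in the 4 sections. At this depth Itgam was found in 19.1% and 18.5% of spots in CC075F1 and in 28.7% and 27.1% in CC080F1. The 95% binomial intervals (exact, for counting error only) of both CC075F1 sections, 17.6 to 20.7% and 17.2 to 19.9%, lay below those of the CC080F1 sections, 27.0 to 30.4% and 25.5 to 28.7%. The strain means were 18.8 ± 0.41% and 27.9 ± 1.15% (exact permutation p = 0.33, 1 after adjustment over the 9 genes). Before thinning the shares were 44.8, 57.8, 63.9 and 60.6%.

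Ly6c2 was found in 1.73% and 10.7% of thinned spots in CC075F1 and in 2.78% and 8.93% in CC080F1. Cx3cr1 was found in 30.5% and 13.2% in CC075F1 and in 35.7% and 19.2% in CC080F1. As with their levels, replicate 2 was high for Ly6c2 and low for Cx3cr1 in both strains. Unthinned shares were 5.13, 30.5, 7.86 and 21.8% for Ly6c2 and 62.9, 43.0, 72.1 and 49.5% for Cx3cr1.

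Adgre1 was found in 51.4, 38.7, 48.0 and 46.9% of thinned spots, Cd68 in 58.1, 65.8, 62.3 and 58.5%, and Csf1r in 76.1, 59.6, 73.4 and 72.4%. Strains overlapped in all 3. Csf1 was found in 84.3 and 79.6% in CC075F1 and in 84.5 and 85.2% in CC080F1, with the nearest sections of the 2 strains almost level. Apoe and Lyz2 were in 98.6% or more of the thinned spots of every section, so their shares could not separate sections. Of the 9 genes none had an exact permutation p below 0.33, the least this design gives, and all were 1 after adjustment over the 9.

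At the tissue edge Ly6c2 was the only one of the 9 genes that was higher in every section. Edge spots were those within 3 steps on the spot grid of a position off the tissue, 568, 665, 880 and 648 spots in the 4 sections. It was higher there than in the interior by 1.83-fold on average, whereas the mean edge to interior ratios of the other 8 genes were 0.96 to 1.09. Its adjusted p was just above the threshold in the test across genes, and 6 of 11 alternative settings put it below.

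The Ly6c2 level was 3.30 CPM at the edge against 1.67 in the interior in CC075F1 replicate 1, and 24.6 against 11.8 in CC075F1 replicate 2. It was 3.57 against 3.13 in CC080F1 replicate 1, and 20.1 against 8.35 in CC080F1 replicate 2. These edge values rested on 37, 469, 97 and 359 UMIs. Thus edge and interior differed least in CC080F1 replicate 1, by 0.19 on the log2 scale, and by 0.99, 1.06 and 1.26 in the other 3 sections. The near copy Ly6c1 had log2 edge to interior ratios of 0.59, 0.80, −0.01 and 0.78, also lowest in CC080F1 replicate 1. Whether reads were misplaced between the pair was not tested. For Ly6c2 an exact sign-flip permutation test over the 4 sections gave p = 0.13, the smallest it can give. In the edgeR fit with the section as a block, the log2 fold change was 0.83 ± 0.16 (SE, unadjusted p = 0.00080, adjusted p = 0.0565). By this test 166 of 15089 genes (1.10%) were called and 0 of the 9 members. An unadjusted p under 0.05 was found for 2765 of the 15089 genes and for 1 member, Ly6c2. The DESeq2 Wald test called Ly6c2 alone of the 9 (adjusted p = 0.00124), and 630 of 15089 genes. Without each section in turn, in the same order, the log2 fold change was 0.81, 0.84, 1.03 and 0.64, with adjusted p-values of 0.198, 0.115, 0.00116 and 0.279 (edgeR), so the call was made in 1 of these 4 fits. The count of all genes called was 20, 79, 946 and 4 in them.

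The edge log2 fold changes of the other 8 genes lay between −0.14 and 0.07 in the edgeR fit, and their adjusted p-values between 0.291 and 0.971. Adgre1 was at 70.6, 55.2, 56.5 and 56.9 CPM at the edge and at 76.3, 45.7, 68.6 and 62.8 CPM in the interior. In 3 sections it was lower at the edge and in CC075F1 replicate 2 higher. For Apoe, Csf1r and Lyz2 the edge to interior ratio was also largest in that section. Apoe was at 1528, 1150, 961 and 800 CPM at the edge and at 1735, 619, 1118 and 787 CPM in the interior. Only in CC075F1 replicate 2 was the ratio large, at 0.89 on the log2 scale, and without that section the fitted change of Apoe was −0.14 in place of 0.06. The muscle markers summed to 1069 CPM at the edge of that section and to 3.52 to 15.8 CPM at the edge of the other 3, and without spots of muscle, skin or fat markers the fitted change of Apoe was 0.03.

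Set against the mature macrophage genes, Ly6c2 was also higher at the edge in all 4 sections. Its log2 difference from the mean of Adgre1, Cd68, Csf1r and Apoe was greater at the edge than in the interior by 1.13, 0.61, 0.40 and 1.37. The mean of 0.87 ± 0.45 (SD, n = 4) is a 1.83-fold shift (exact sign-flip permutation p = 0.13, the smallest possible with 4 sections). CC075F1 averaged 0.87 and CC080F1 0.88.

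The Ly6c2 level was then followed over bands of distance from the edge. In the outermost step Ly6c2 was at 4.48, 24.7, 6.65 and 18.4 CPM. In spots 13 or more steps inside it was at 1.07, 9.13, 2.78 and 7.63 CPM. The outermost step exceeded the deepest band in 4 of 4 sections, by 2.39 to 4.17-fold (sign-flip permutation p = 0.13). In CC075F1 replicate 2 the level fell at every band, from 24.7 through 24.6, 16.1, 14.4 and 11.9 to 9.13 CPM. In CC080F1 replicate 1 only the outermost step was high. Steps 2 to 3 there were at 1.92 CPM, the lowest band of that section, on 34 UMIs. CC080F1 replicate 2 had its highest band at steps 2 to 3, at 20.8 CPM. None of the other 8 genes was higher in the outermost step than in the deepest band in every section. Mean ratios of the outermost to the deepest band were 1.33 for Apoe, 1.27 for Itgam and 0.94 to 1.13 for the other 6.

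**Figure D2:**
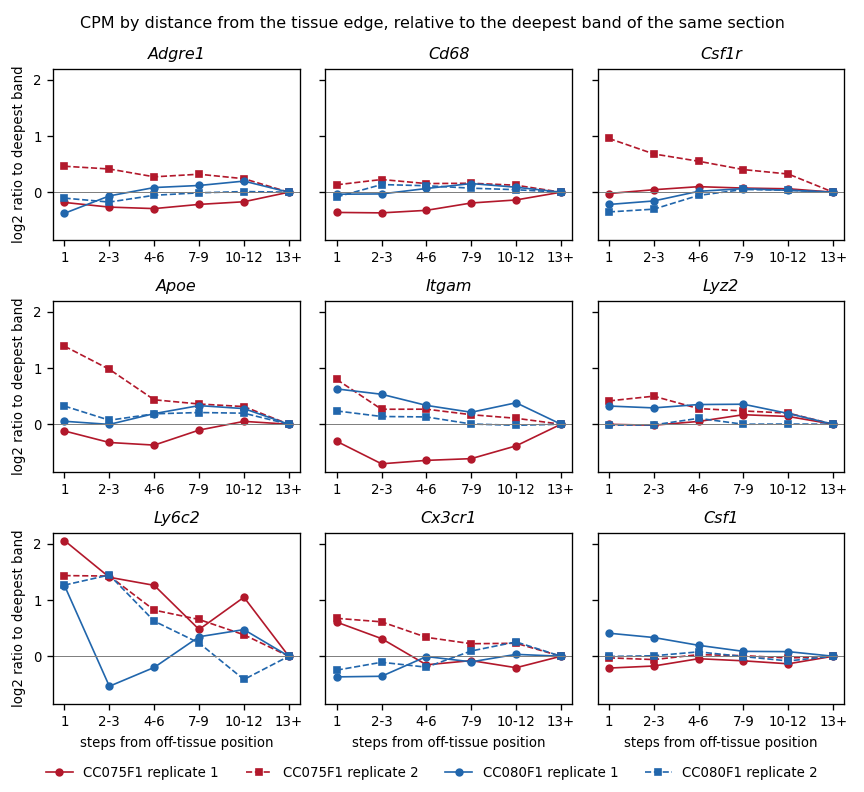
CPM of each gene in 6 bands of distance from the nearest position off tissue (horizontal axis, in grid steps), as the log2 ratio to the deepest band of the same section (vertical axis, shared). Lines are sections. All 4 Ly6c2 lines start above 0 at the outermost step, at ratios of 2.39 to 4.17-fold, and the lines of the other genes start on both sides of 0 or near it.

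Edge spots differed from interior spots in more than myeloid RNA. Their median depth was 18032, 25171, 30120 and 26855 UMIs against 33592, 46146, 34844 and 37003 in the interior, and their mitochondrial share of UMIs was 2.04 to 2.89% against 1.65 to 2.32%. The summed level of 6 endothelial markers was 157, 137, 166 and 143 CPM at the edge and 74.4, 66.8, 145 and 107 CPM in the interior. At the edge 3 of 7 fibroblast genes rose, Col1a1, Col1a2 and Postn, by 1.96 to 2.20 on the log2 scale (adjusted p 0.0167 to 0.0288, edgeR). Of the 8 neutrophil markers, 5 could be tested and 3 rose, S100a8 by 1.93, S100a9 by 2.15 and Retnlg by 3.91 on the log2 scale (adjusted p 0.0167 to 0.0285, edgeR). Without CC075F1 replicate 1, and likewise without CC080F1 replicate 2, 0 genes of either list were called. The neutrophil markers' summed level was low, at 5.17 to 12.5 CPM at the edge and 1.18 to 3.65 CPM in the interior, and the neutrophil-defining Ly6g, Camp and Ngp had 0 to 3 UMIs per section. The part of these cells in the Ly6c2 result was not tested. Without spots of muscle, skin or fat markers the Ly6c2 log2 fold change was 0.81 (adjusted p = 0.0290, edgeR).

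Other classical monocyte genes were higher at the edge as well. Of 10 listed, 4 rose and 0 fell, against 1.10% of all genes called, and the list's median log2 fold change was 0.59 where that of all genes was −0.02. The 4 were Plac8 at 0.66 ± 0.12, Chil3 at 1.24 ± 0.14, Hp at 3.04 ± 0.52 and Thbs1 at 1.09 ± 0.16 (adjusted p 0.0141 to 0.0477, edgeR). Plac8 is a small protein abundant in Ly6C-high monocytes, Chil3 the chitinase-like protein Ym1, Hp haptoglobin and Thbs1 thrombospondin 1. All of them were higher at the edge in 4 of 4 sections, but they are not exclusive to monocytes, and Hp is also made by neutrophils and fat cells. The number called depended on the sections, at 1, 2, 6 and 0 of the 10 when each was left out in turn, while the list's median stayed at 0.52 to 0.67. Chil3 was sparse, with 66, 303, 152 and 562 UMIs in the whole sections. Ccr2 was higher at the edge in 3 sections and level in CC080F1 replicate 1, at 63.95 against 63.6 CPM (log2 fold change 0.31, adjusted p = 0.121, edgeR). The median edge log2 fold change was 0.58 for 7 dendritic cell genes and 0.56 for 6 endothelial genes, with 0 called in either list. It was 1.83 for fibroblast, 1.93 for neutrophil, 0.26 for T and NK cell and −0.11 for B cell genes. A higher level at the edge was thus not particular to classical monocyte genes.

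Of the 14 other mature macrophage genes 0 were called at the edge, with a median of 0.02. C1qa, C1qb and C1qc, which make up complement C1q, had log2 fold changes of 0.09, −0.08 and −0.01. Of 8 non-classical monocyte genes 0 were called, with a median of 0.31. Among the integrin partners and ligands 1 of 5 rose, Itgax (CD11c), at 0.60 ± 0.10 (adjusted p = 0.0412, edgeR, and 0.0125 to 0.171 when each section was left out), and Itgb2 was at 0.25 (adjusted p = 0.0715). None of the CSF ligands and receptors tested was called. The receptor chains for GM-CSF, Csf2rb and Csf2rb2, were at 0.50 and 0.65 (adjusted p 0.103 and 0.0626, edgeR), and Il34, the second ligand of Csf1r, at −0.15. No gene was called among the 8 myeloid transcription factors, of which all 8 had a positive log2 fold change (median 0.13), nor among the lists of recruitment and of lipid handling.

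**Figure D3:**
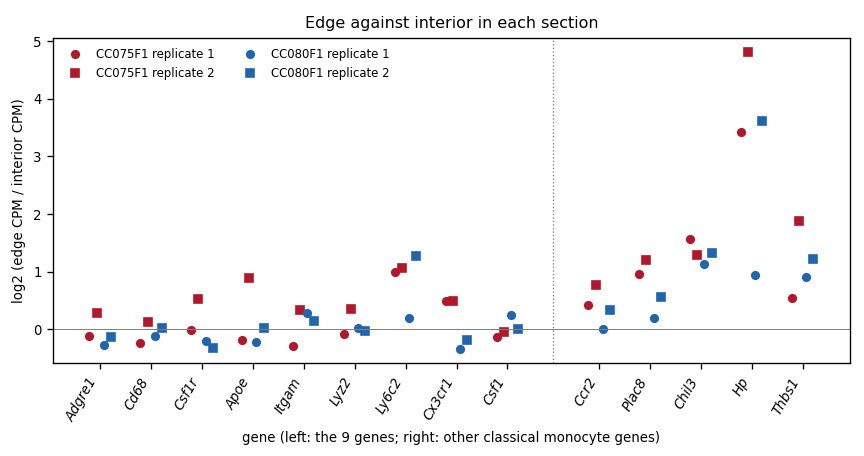
Log2 ratio of edge to interior CPM (vertical axis) for each of the 9 genes and, right of the dotted line, 5 other classical monocyte genes, Ccr2 and the 4 that were called. Points are sections, with colour for strain and shape for replicate. Ly6c2 is the only one of the 9 with all 4 sections above 0, as are Plac8, Chil3, Hp and Thbs1 on the right, while Ccr2 has 1 section near 0.

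The edge difference itself was also compared between strains. Of 15089 genes 16 (0.106%) were called for the interaction of strain and edge by edgeR, and 0 of the 9 members. Leaving out each section moved the count of genes to 121, 1, 178 and 501. The 3 members Cx3cr1, Csf1 and Csf1r had an unadjusted p under 0.05, as did 1283 of all 15089 genes. The DESeq2 Wald test called 69 of 15089 genes and 0 of the 9. Cx3cr1 was at 48.8 and 18.4 CPM at the edge of the CC075F1 sections and at 34.9 and 13.2 CPM in their interior. In CC080F1 it was at 36.6 and 20.1 CPM at the edge and at 46.3 and 22.9 CPM in the interior. It was thus higher at the edge in both CC075F1 sections, by 0.48 and 0.48 on the log2 scale, and lower in both CC080F1 sections, at −0.34 and −0.19. The interaction was 0.61 ± 0.12 (SE, unadjusted p = 0.00085, adjusted p = 0.143, edgeR), and 0.51, 0.69, 0.50 and 0.70 without each section in turn, with adjusted p-values of 0.240, 0.499, 0.405 and 0.00306 (edgeR). In each of these fits 1 section stands for its strain and is assumed to vary like the others. Its ligand Cx3cl1 had an edge log2 fold change of 0.66 and an interaction of 1.09 (adjusted p 0.366 and 0.672, edgeR) at under 3 CPM in the mean of either strain. Median interactions were 0.53 for 8 non-classical monocyte genes, 0.58 for 6 endothelial genes and 1.13 for 7 dendritic cell genes. They were 0.03 for other classical monocyte and 0.09 for other mature macrophage genes, and none of these listed genes was called.

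Csf1 was at 189 and 156 CPM at the edge of CC075F1 against 208 and 162 in the interior, and at 214 and 201 CPM at the edge of CC080F1 against 180 and 199.9 in the interior. It was lower at the edge in both CC075F1 sections, higher in CC080F1 replicate 1 and level in CC080F1 replicate 2. The interaction was −0.37 ± 0.12 (adjusted p = 0.410, edgeR). Csf1r had one of 0.36 ± 0.14 (adjusted p = 0.516, edgeR). Only CC075F1 replicate 2 was higher at the edge for Csf1r, at 128 against 89.0 CPM. For Ly6c2 the interaction was 0.01 ± 0.31 (adjusted p = 0.996, edgeR).

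Over the tissue, Ly6c2, the only classical monocyte gene of the 9, was compared with mature macrophage RNA in tiles. A tile was 4 rows by 8 columns of the spot grid, with at least 8 spots on tissue. There were 171, 210, 177 and 201 tiles. Neighbouring tiles share tissue, and every tile's genes share a library and a depth, so the correlations of log2(CPM + 1) describe the sections and carry no p. Ly6c2 and the mean of the 4 mature genes had a Pearson r of 0.02, 0.48, 0.08 and 0.03. They were related in CC075F1 replicate 2 and hardly in the other 3. Ly6c2 averaged 0.88, 9.31, 1.58 and 5.55 UMIs per tile, so in the replicate 1 sections counting noise limits any r. In CC080F1 replicate 2, with 5.55 UMIs per tile, r was nonetheless 0.03.

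Tiles of each section were also put in 4 equal groups by the mature macrophage measure. From the lowest to the highest group Ly6c2 went from 2.02 to 1.73, from 6.54 to 29.6, from 2.21 to 3.33 and from 7.88 to 9.67 CPM. That is a ratio of 0.86, 4.52, 1.51 and 1.23. The same ratio of the highest to the lowest group was 1.35 to 1.95 for Lyz2, 1.02 to 2.35 for Cx3cr1, 1.13 to 1.45 for Itgam and 0.97 to 1.16 for Csf1.

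**Figure D4:**
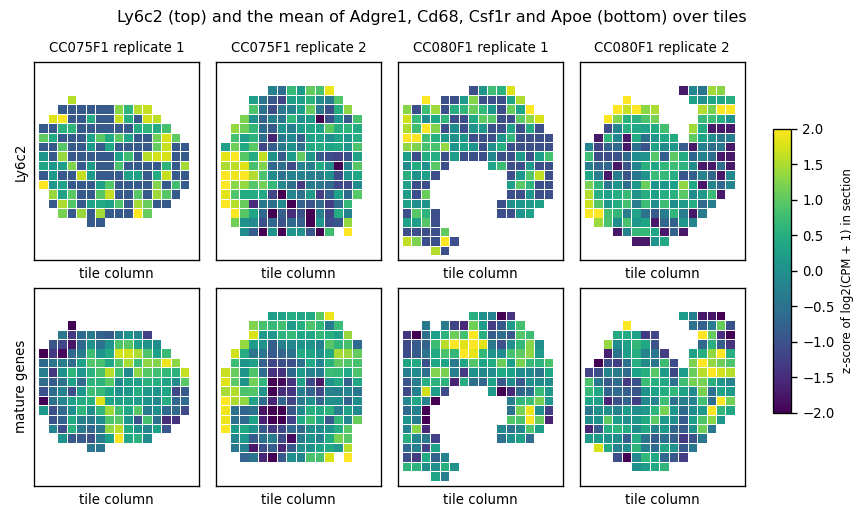
Tiles of each section in their place on the slide (horizontal axis tile column, vertical axis tile row), coloured by the number of SDs from the section's mean of log2(CPM + 1), for Ly6c2 (top) and the mean of Adgre1, Cd68, Csf1r and Apoe (bottom). In CC075F1 replicate 2 both are high along the left margin, and r was 0.48, against 0.02 to 0.08 in the other sections.

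The mature macrophage genes and Lyz2 followed each other. Apoe and Lyz2 had a mean r of 0.62 (0.53 to 0.76 in the 4 sections), Csf1r and Lyz2 0.58 (0.40 to 0.74), Adgre1 and Csf1r 0.43 (0.31 to 0.62), and Csf1r and Apoe 0.42 (0.20 to 0.65). Cd68 was more loosely tied, with 0.30 to Adgre1, 0.29 to Itgam, 0.21 to Apoe and 0.19 to Csf1r. Cx3cr1 went with Csf1r (mean r 0.44, 0.21 to 0.68) and with Lyz2 (0.27), and had no steady relation to Cd68 (−0.13 to 0.13). Itgam went with Cd68 in every section (0.25 to 0.35). Ly6c2 had its highest mean r with Csf1r, at 0.21, from 0.00 to 0.50.

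**Figure D5:**
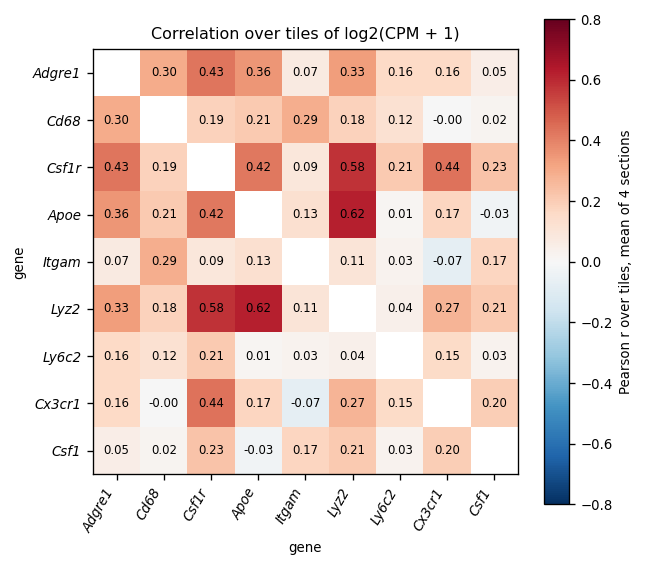
Pearson r over tiles of log2(CPM + 1) between each pair of the 9 genes, as the mean of 4 sections (colour scale from −0.8 to 0.8). Apoe, Lyz2, Csf1r and Adgre1 form the block of high values, from 0.33 to 0.62, and the row of Ly6c2 runs from 0.01 to 0.21.

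Lists of other genes placed the members further. With the mean of 14 other mature macrophage genes, r averaged 0.54 for Apoe, 0.52 for Csf1r, 0.52 for Lyz2, 0.38 for Cd68, 0.37 for Adgre1 and 0.30 for Cx3cr1. It was 0.21 for Ly6c2, 0.16 for Itgam and 0.13 for Csf1. Itgam and Csf1 thus had the lowest values with this list. With 10 other classical monocyte genes the highest mean was that of Ly6c2, at 0.48 (0.09 to 0.73 in the sections), and the other 8 averaged 0.01 to 0.21. Ly6c2 was also related to non-classical monocyte genes (0.37), to dendritic cell genes (0.39), to fibroblast genes (0.37), to T and NK cell genes (0.36) and to endothelial genes (0.31), and to neutrophil genes at 0.09. In CC075F1 replicate 1, Ly6c2 had an r of 0.09 with classical monocyte genes and of 0.32 with T and NK cell genes. In the other sections the value with classical monocyte genes was the higher. Itgam was related to neutrophil genes at 0.06.

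The genes most like each member over tiles were taken as those with the highest value of the lowest of the 4 section r, among 7084 genes of at least 10 CPM in every section. For Ly6c2 they included Ly6a (r 0.39 to 0.70) and Ly6e (0.27 to 0.75), which belong to the same gene family as Ly6c2. Ly6a was at 135, 326, 47.3 and 205 CPM, and so shared the high replicate 2 sections of Ly6c2. For Adgre1 they were Itm2b, Tyrobp and C1qb (lowest r 0.32 to 0.37), and for Csf1r Tyrobp, C1qb and Olfml3 (0.41 to 0.48). Tyrobp encodes DAP12, the signalling adaptor of myeloid receptors. For Cd68 they were Fcer1g, the Fc receptor common chain, C3ar1, the receptor for complement C3a, and Ifitm2 (0.28 to 0.38). For Apoe they were Itm2b, Lyz2 and Cst3, the cysteine protease inhibitor cystatin C (0.49 to 0.62), and for Lyz2 they were Apoe, Txnip and Serinc3 (0.41 to 0.53). For Cx3cr1 they were Ptma, C1qc and C1qa (0.31 to 0.38). Itgam had the weakest likeness, with Cd68, Pik3ap1 and Ywhag (0.22 to 0.25). Those of Csf1 were Ccnd1, Tuba1c and Nop56 (0.35 to 0.41), which encode cyclin D1, an alpha tubulin and a protein of ribosome assembly and mark no myeloid cell.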

How the data were processed

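Visium spatial RNA libraries of 4 tumor sections were analysed from the deposited raw UMI counts, made by the authors with Space Ranger 1.3.1 on the 10x mm10 reference (GRCm38, GENCODE vM23) for spots under tissue, with no normalization. Reads that fit more than 1 gene are not counted by that pipeline. Gene positions came from GENCODE vM21 on the same build and promoter windows from RefSeq.

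UMIs were summed per section, and per section and zone, and fitted over all genes in edgeR 4.0.16 (R 4.3.3; TMM, filterByExpr, quasi-likelihood) with Benjamini-Hochberg adjustment at 0.05. DESeq2 1.42.0 was an alternative. The terms were strain, section and zone, or section, zone and their interaction with strain. The pipeline was tested on simulated data. Single values were tested by exact permutation over sections, two-sided. Spots were thinned to 10000 UMIs with a fixed seed, and binomial intervals are Clopper-Pearson at 95%. Tile values used a pseudocount of 1 CPM. Spots of a section were not treated as replicates in any test. The binomial intervals take spots as independent, and so cover counting error within a section and not the spread between sections.

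Replicate 1 deviations from the strain means correlated at 0.17 between strains over 15572 genes. The 9 members, the gene lists and the tests were chosen with earlier results of these data known. From each list, genes called in a comparison were named, and otherwise up to 3 with the largest change among those of at least 10 CPM. Outside that rule, the C1q genes and Itgb2 at the edge, Csf2rb2, Cx3cl1, Ly6g, Camp, Ngp, Lyz1 and Treml4 were named after their values were seen. A few listed or matching genes and a second motif are not reported here. The alternatives were other scalings, filters, tests, edge widths, tile sizes and depths, and leaving out each section.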

Additional observations from a re-analysis of the deposited data

Results flagged for a closer look

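For 2 of the 9 genes, Cx3cr1 and Csf1, the edge to interior ratios of all single sections lay on opposite sides of 1 by strain. Neither difference passed the test. The strain means also lay on opposite sides of 1 for Adgre1, Csf1r, Apoe and Lyz2, where the single sections did not split by strain. The share of all genes with either split was not counted. For Cx3cr1 both CC075F1 sections were higher at the edge and both CC080F1 sections lower, and the mean log2 edge to interior ratios of 0.48 and −0.26 differed by 0.75. In the edgeR interaction test the difference was 0.61 (adjusted p = 0.143), and over 11 alternatives it ranged from 0.43 to 0.75. For Csf1 both CC075F1 sections were lower at the edge, CC080F1 replicate 1 was higher and CC080F1 replicate 2 level (200.9 against 199.9 CPM), with means of −0.09 and 0.13 that differed by −0.22. The edgeR interaction was −0.37 (adjusted p = 0.410), and −0.47 to −0.22 over 11 alternatives. Skeletal muscle markers at the edge were most abundant in CC075F1 replicate 2, and without spots of muscle, skin or fat markers the interactions were 0.60 for Cx3cr1 and −0.37 for Csf1.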

How the results depend on the processing

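The counts of the 9 genes called changed from 0 to 1 under some settings. Between strains the count was 1 with the DESeq2 Wald test, and 0 to 1 when each section was left out, with Ly6c2 called without CC080F1 replicate 2. Between edge and interior it was 1 with the DESeq2 Wald test, an edge of 2 steps, no filter on low counts, the outer boundary only, and without muscle, skin or fat spots, and 0 to 1 when each section was left out. In each case the gene was Ly6c2, whose log2 fold change was positive under all 11 alternatives, at 0.64 to 1.03. It was not called with an edge of 5 steps (0.71, adjusted p = 0.128, edgeR). For strain by edge the count was 1 without the filter and 0 to 1 when each section was left out, with Cx3cr1 called. With the replicate number as a block, 287 genes were called between strains in place of 14, and 0 of the 9. Whether same-numbered samples shared a slide or run was not known here. Over all genes, the DESeq2 Wald test called 194 of 15572 between strains and 630 of 15089 between edge and interior. At the edge 238 of 15190 genes were called with 2 steps and 683 of 22507 without the filter. With the outer boundary only it was 313 of 15118, and without muscle, skin or fat spots 441 of 15091. For strain by edge 532 of 22507 genes were called without the filter.

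The strain difference of Ly6c2 against mature macrophage genes ran from −1.93 to 1.52 when each section was left out. Directions of small changes turned as follows, and the cause was not tested. Strain log2 fold changes with library size alone were −0.052 for Adgre1, −0.16 for Csf1r and −0.092 for Csf1, and leave-one-out ranges were −0.54 to −0.01 for Itgam, −1.82 to 1.83 for Ly6c2 and −0.65 to 0.33 for Cx3cr1. At the edge, 5 steps gave −0.0099 for Apoe, 0.0054 for Lyz2 and −0.030 for Cx3cr1, and library size gave 0.062 for Lyz2 and 0.016 for Csf1. A strain left with 1 section is assumed to vary like the other. Leave-one-out ranges at the edge were −0.14 to 0.16 for Apoe, −0.0081 to 0.18 for Itgam, −0.051 to 0.037 for Lyz2, −0.10 to 0.17 for Cx3cr1 and −0.15 to 0.022 for Csf1. For strain by edge, library size gave 0.14 for Lyz2, and Ly6c2 was −0.0088 without the filter, −0.064 with the outer boundary only and −0.089 without muscle, skin or fat spots. Leave-one-out ranges were −0.15 to 0.74 for Apoe, −0.14 to 0.11 for Lyz2 and −0.44 to 0.69 for Ly6c2. Over the 9 genes and 11 alternatives, 91 strain, 82 edge and 89 strain by edge values kept their direction and their side of the threshold. The edge shift of Ly6c2 against mature genes and its tile correlation kept their direction under all 9 alternatives each. The tile correlation has no threshold, and r was 0.48 in CC075F1 replicate 2 but 0.02 to 0.08 in the other sections. Low UMI counts limit Ly6c2 in the replicate 1 sections.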

Other observations

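Lyz1, the near copy of Lyz2 best known from Paneth cells of the gut, did not follow Lyz2 between strains. It was at 2.60 and 0.95 CPM in CC075F1 and at 5.58 and 4.99 CPM in CC080F1, so that both CC080F1 sections were higher where both were lower for Lyz2 (log2 fold change −1.36 ± 0.38, adjusted p = 0.538, edgeR). At these levels it came to 0.11, 0.05, 0.47 and 0.33% of Lyz2. Treml4, a receptor gene of non-classical monocytes, was at 3.24 and 2.99 CPM in CC075F1 and at 0.56 and 0.68 CPM in CC080F1 (log2 fold change 2.65 ± 0.38, adjusted p = 0.0778, edgeR). The other gene of that population among the 9, Cx3cr1, overlapped between strains. Both were named after their values were seen.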
